A study of Mus musculus with 10 samples.

Results

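Tropomyosins are the rod-shaped proteins that lie along actin filaments, and mammals encode them in the 4 genes Tpm1, Tpm2, Tpm3 and Tpm4. All 4 were followed here in mouse hepatic stellate cells, as gene sums and as the 45 transcripts that the GENCODE M21 annotation of GRCm38 gives them, out of 36047 genes and 116816 transcripts matched in all. The genes were chosen as a family by their names, with earlier results of these data known. The libraries are poly-A RNA-seq of cells from livers of C57BL/6 male mice. Quiescent cells were isolated, kept in culture for 5 h, and then put in starving medium for 4 h, either with recombinant murine amphiregulin (Areg, a ligand of the EGF receptor, at 500 ng/mL, 5 libraries) or as control (5 libraries). The series concerns amphiregulin made by regulatory T cells in fatty liver disease, and this comparison asks what the ligand does to stellate cell RNA. Age is not given in the sources used here. Nothing says that the 5 libraries of a group are separate animals or cultures, and p-values then measure only how far these libraries differ from one another, which may be technical.

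Tropomyosin genes can make several proteins, though the annotation used here gives Tpm4 only 1 protein-coding transcript. A gene can start at an upstream promoter, which gives the long forms of the protein, or at an internal promoter, which gives the short forms that lack the first part of the rod. In Tpm1, Tpm2 and Tpm3 the transcripts then carry 1 of a pair of alternative exon 6 sequences and 1 of several last exons. Long forms are typical of contractile filaments and stress fibres, and short forms of more dynamic filaments of the cytoskeleton. Different forms change how myosin, cofilin and other proteins reach the filament. Quiescent stellate cells store vitamin A, and on activation they become contractile cells with stress fibres.

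The first exon separates the long from the short forms, so its coding part is shown here for the starts that the results turn on, from the GENCODE M21 transcripts. The start codon is in capitals in the Tpm1 sequences. In those of Tpm3 and Tpm4, capitals mark the bases that differ from the internal first exon of Tpm1.
Tpm1 upstream first exon, chr9:67049019-67049132, minus strand: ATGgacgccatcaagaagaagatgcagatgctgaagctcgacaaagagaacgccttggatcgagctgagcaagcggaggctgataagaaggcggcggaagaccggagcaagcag
Tpm1 internal first exon, chr9:67043578-67043709, minus strand: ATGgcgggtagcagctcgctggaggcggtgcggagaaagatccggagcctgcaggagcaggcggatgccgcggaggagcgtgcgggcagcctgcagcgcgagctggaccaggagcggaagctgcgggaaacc
Tpm3 internal first exon, chr3:90079732-90079863, plus strand: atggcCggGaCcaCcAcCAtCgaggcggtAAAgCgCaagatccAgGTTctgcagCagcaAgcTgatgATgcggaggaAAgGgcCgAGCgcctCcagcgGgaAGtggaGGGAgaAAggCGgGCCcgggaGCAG
Tpm4 first exon, chr8:72135322-72135453, plus strand: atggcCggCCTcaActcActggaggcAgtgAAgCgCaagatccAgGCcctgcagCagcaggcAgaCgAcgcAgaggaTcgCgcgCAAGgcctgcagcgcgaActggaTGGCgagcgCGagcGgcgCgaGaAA
The Tpm1 upstream exon has 114 coding bases and the internal exon 132. The internal first exon of Tpm3 differed from that of Tpm1 at 48 of 132 bases, and that of Tpm4 at 37. Short reads tell Tpm1 and Tpm2 apart from other genes well: of 6703 different 31-base stretches in Tpm1 transcripts, only 9 occur in another annotated gene, and of 3011 in Tpm2 transcripts, 9. Tpm3 and Tpm4 have processed copies elsewhere in the genome. Tpm3 shares 1664 of its 6195 stretches with the retrogene Tpm3-rs7, which held 3 to 26 estimated counts a library. In the main Tpm3 transcript, Tpm3-201, only 534 of 2200 stretches (24.3%) occur in no other gene, so its counts rest more on estimation. Tpm4 shares 347 of 2173 with Gm7809, which held 0.

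Total estimated counts ran from 10125184 to 17566891 in the controls and from 14365027 to 20057962 in the Areg libraries. Controls 3 and 4 were the shallowest and lay apart on principal component 1 of expression (46.6 and 28.6, against -16.5 to 0.455), so the results are also given without them. The stellate cell markers were strongly present in TPM, a scale that allows for transcript length. These 10 genes summed to 10321 to 11125 TPM in controls and to 9620 to 9961 TPM with Areg, without overlap. The cultures also held RNA of other liver cells. The sinusoidal endothelial list summed to 3392 to 3783 TPM in controls and 3403 to 3502 TPM with Areg, the Kupffer cell list to 627 to 680 and 601 to 650, and the hepatocyte list to 1168 to 1811 and 1240 to 1535. In these bulk samples, fewer cells of a type and less RNA per cell cannot be told apart. Of the markers, 3 of 10 stellate cell genes fell with Areg (Lrat, the enzyme that stores vitamin A as its ester, Ecm1 and Lhx2), and 1 of 8 endothelial genes (Ehd3) and 1 of 8 hepatocyte genes (Cyp2e1) rose. None of the 8 Kupffer cell genes tested passed, and none of the 7 of portal fibroblasts and mesothelium. Over all genes tested, 8.34% were called higher and 8.32% lower, shares to set beside these small counts. Smooth muscle genes were low. The vascular smooth muscle list summed to 105 to 135 TPM in controls and 120 to 125 TPM with Areg, most of it Smtn, which rose, and Mustn1 (33.1 to 51.7 and 30.3 to 35.3 TPM, edgeR adjusted p = 0.16). Myh11, the smooth muscle myosin, had 5.47 to 5.80 TPM in controls and 6.08 to 6.27 TPM with Areg (edgeR adjusted p = 0.0921), Synpo2 fell, and Cnn1 stayed at or below 1.27 TPM. The skeletal and cardiac muscle list summed to 2.35 to 4.44 and 3.13 to 4.55 TPM, with none of the 3 tested genes passing. The portal list summed to 13.4 to 18.6 and 13.7 to 16.5 TPM. Without controls 3 and 4, Lhx2, Cyp2e1 and Synpo2 were not called (edgeR adjusted p = 0.0653, 0.112 and 0.0968). Over 20 alternative fits, these 3 calls were lost in 6, 11 and 15. Leaving out 1 single library was enough for 1, 6 and 8 of the 10 libraries. In that fit the stellate gene Reln and the endothelial Stab2 were called lower, and the hepatocyte genes Ttr and Serpina1c higher. The part of other cells in the tropomyosin values was not tested.

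All 4 tropomyosin genes were higher with Areg, by a small step. Per length, Tpm4 and Tpm1 were the most abundant, Tpm3 followed, and Tpm2, a gene best known from skeletal and smooth muscle, was scarce. In controls, Tpm4 had 834 ± 71.3 TPM (SD, n = 5), Tpm1 788 ± 52.0, Tpm3 585 ± 20.8 and Tpm2 14.6 ± 1.27. With Areg, these levels were 929 ± 15.2, 848 ± 11.0, 650 ± 31.9 and 17.8 ± 1.56 TPM. Among controls the ranges of Tpm4 (742 to 913 TPM) and Tpm1 (714 to 836 TPM) overlapped, so their order was not separated from the spread. Among Areg libraries they did not overlap (912 to 951 against 839 to 863 TPM). The other neighbours in the order did not overlap in either group. The mix of the genes hardly moved: Tpm1 made up 35.4% ± 0.956 of the family's TPM in controls and 34.7% ± 0.474 with Areg, Tpm4 37.5% ± 1.28 and 38.0% ± 0.407, Tpm3 26.4% ± 1.44 and 26.6% ± 0.751, and Tpm2 0.659% ± 0.0495 and 0.727% ± 0.0624.

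CPM, which are counts scaled by TMM library size, give the level of each gene for the test. Tpm1 stood at 685, 730, 711, 653 and 704 CPM in controls 1 to 5 and at 754, 763, 741, 786 and 778 CPM in Areg libraries 1 to 5. Tpm2 stood at 10.04, 9.69, 11.15, 9.39 and 9.72 CPM against 11.62, 13.27, 12.91, 11.75 and 13.64 CPM, from only 101 to 259 estimated counts a library. Tpm3 stood at 665, 680, 701, 715 and 666 CPM against 735, 777, 751, 830 and 812 CPM. In these 3 genes every Areg library was above every control. Tpm4 stood at 1008, 1023, 930, 960 and 1044 CPM against 1101, 1136, 1100, 1126 and 1153 CPM, again with no overlap. Controls 3 and 4 were the lowest 2 controls for Tpm4 but the highest 2 for Tpm3. For comparison, 14.7% of the 13362 genes tested had CPM values that did not overlap between the groups.

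**Figure D1:**
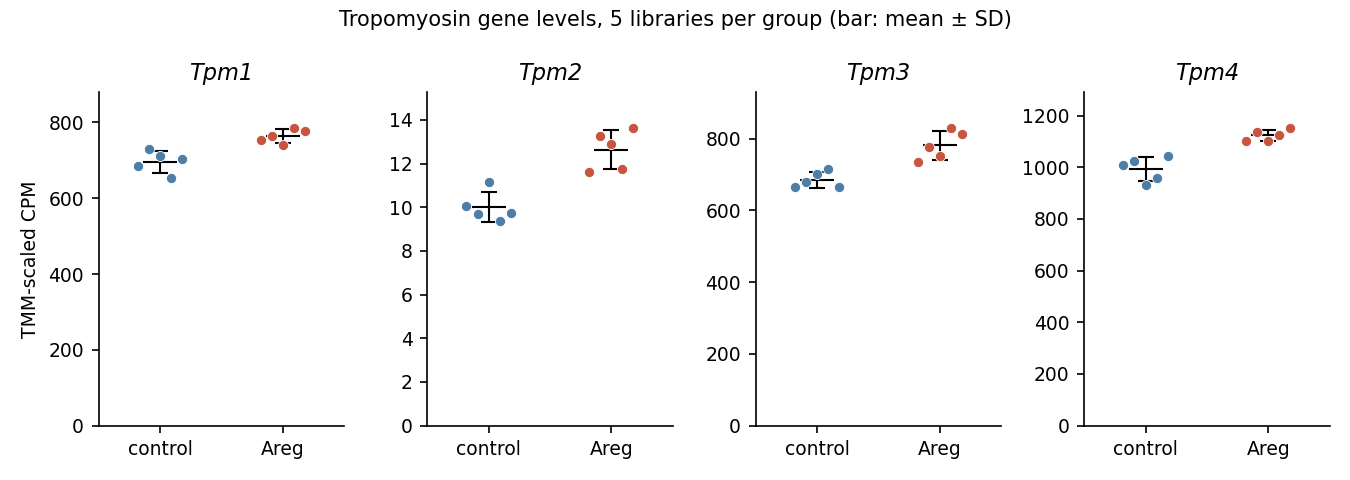
TMM-scaled CPM of each tropomyosin gene on a linear axis from 0, with 1 point per library, 5 control (blue) and 5 Areg (red), and bars for the mean ± SD. In each panel all Areg points lie above all control points, and the Tpm2 axis is far lower than the others.

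By edgeR's quasi-likelihood test with Benjamini-Hochberg adjustment over 13362 genes, all 4 genes rose. Tpm2 rose by 0.34 ± 0.09 on the log2 scale (SE, n = 5 per group, 1.27-fold, adjusted p = 0.0119). Tpm3 rose by 0.19 ± 0.05 (1.14-fold, adjusted p = 0.0124) and Tpm4 by 0.18 ± 0.05 (1.13-fold, adjusted p = 0.0148). Tpm1 rose by 0.13 ± 0.04 (1.10-fold, adjusted p = 0.0492). Of all genes tested, 8.34% were called higher and 8.32% lower, 16.7% in all, and the median change was -0.01. Without controls 3 and 4, the edgeR adjusted p-values were 0.0437 for Tpm1, 0.00899 for Tpm2, 0.00105 for Tpm3 and 0.016 for Tpm4.

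The Tpm1 call was at the edge of the threshold: leaving out any 1 of control 1, 4 or 5 or of the Areg libraries gave an adjusted p of 0.0559 to 0.116, and without control 2 or 3 it was 0.0375 and 0.0373. On the per-length scale, log2(TPM + 1) with limma, none of the 4 passed (changes of 0.11, 0.26, 0.15 and 0.16 for Tpm1 to Tpm4, adjusted p = 0.219, 0.0842, 0.0867 and 0.119). That scale gave 322 genes higher and 534 lower, against 1114 and 1112 from the counts. On the TPM scale the groups did not overlap for Tpm1 and Tpm2 and did for Tpm3 and Tpm4, with 9.27% of all genes not overlapping.

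Inside Tpm1, transcripts of the upstream start, which include all its long forms, were together higher in every Areg library. Those of the internal start were not separated between the groups. The upstream start also gives Tpm1-217, Tpm1-218 and Tpm1-219, which encode no long form. Tpm1 (ENSMUSG00000032366.15, chr9:67022590-67049406, minus strand) has 21 annotated transcripts. Of these, 13 start in the upstream group (67049118 to 67049406), 7 in the internal group (67043709 to 67043962) and 1, Tpm1-221, farther downstream at 67032825. Starts within 500 bases were joined in a group. The upstream group stood at 385, 416, 404, 384 and 398 CPM in controls 1 to 5 and at 465, 469, 464, 485 and 476 CPM with Areg. The internal group stood at 277, 292, 289, 249 and 285 CPM against 267, 276, 254, 280 and 283 CPM. The upstream group was thus higher in every Areg library (398 ± 13.3 against 472 ± 8.92 CPM, mean ± SD, n = 5), while the internal group overlapped (279 ± 17.3 against 272 ± 11.6 CPM). The downstream transcript also overlapped (20.6 ± 2.06 against 20.9 ± 1.66 CPM).

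As a share of Tpm1 estimated counts, the upstream start held 56.2, 57.0, 56.8, 58.8 and 56.5% in controls 1 to 5 and 61.7, 61.4, 62.6, 61.7 and 61.1% with Areg. The internal start held 40.3, 40.1, 40.6, 38.2 and 40.5% against 35.4, 36.1, 34.3, 35.5 and 36.4%. Neither share overlapped between groups, and the differences of the means were 4.63 and -4.39 percentage points. Control 4 was the control nearest to the Areg libraries. Over all genes, 1.74% of 14713 start-group shares did not overlap. In TPM, which allows for the longer transcripts, the upstream share was 58.7% ± 0.803 in controls and 63.1% ± 0.763 with Areg (n = 5 each), again with no overlap.

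**Figure D2:**
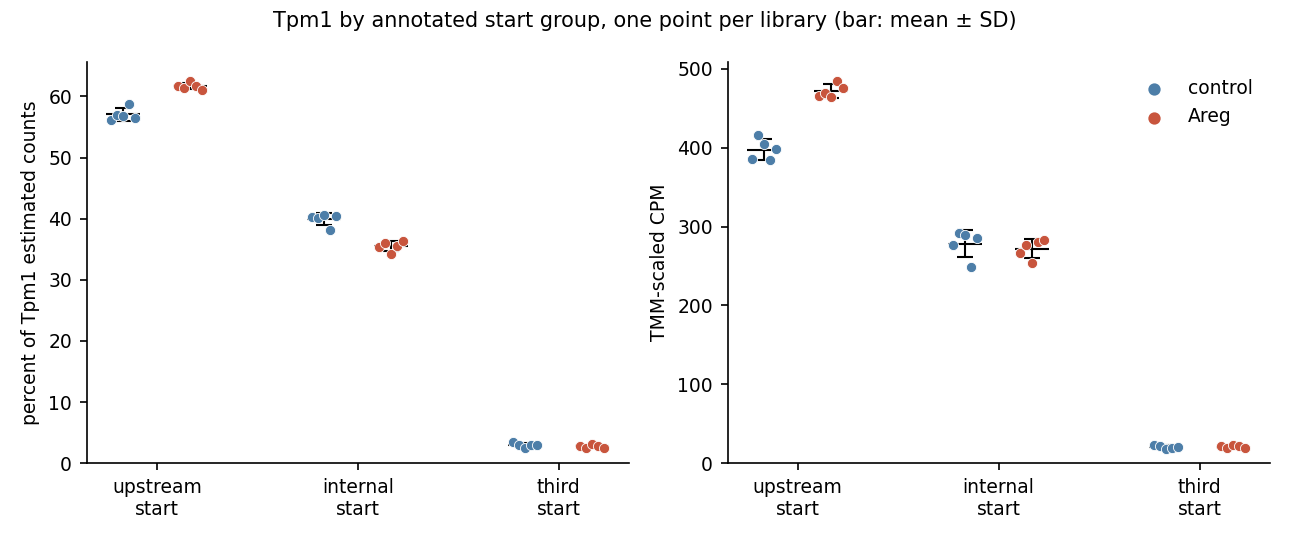
Tpm1 by start group, with 1 point per library (control blue, Areg red) and bars for the mean ± SD. The left panel gives the percent of Tpm1 estimated counts and the right panel the CPM of the same groups, where the upstream start is higher with Areg and the internal start overlaps.

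The tests of this shift did not give 1 answer. The edgeR test of shares (diffSpliceDGE), the test chosen for it, did not call either share (log2 change relative to the whole gene 0.11 and -0.17, edgeR adjusted p of 1 for both). It called only 0.0884% of start-group shares, 13 of 14713. The limma version (voom and diffSplice) called both, with adjusted p = 0.0134 for the upstream and 0.0211 for the internal share, and called 0.496% of all. An exact two-sided permutation test over the 252 arrangements of the libraries gave p = 0.00794 for each share, the smallest it can give. After Benjamini-Hochberg adjustment over all start groups this permutation p was 0.456. Only the 256 shares without overlap reach the smallest p, too few among 14713 for any to pass. The adjusted permutation test thus could not decide on these shares. The shift thus stands as a difference between non-overlapping groups that the chosen test did not call.

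The map of the main Tpm1 transcripts shows what these starts lead to. Of the 21, 16 are protein coding, and 16 passed the filter on low counts. The 5 that did not pass (Tpm1-204, Tpm1-206, Tpm1-208, Tpm1-219 and Tpm1-220) held at most 26.3 estimated counts in any library. A total of 12 transcripts reached 2% of the gene's counts in either group.

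**Figure D3:**
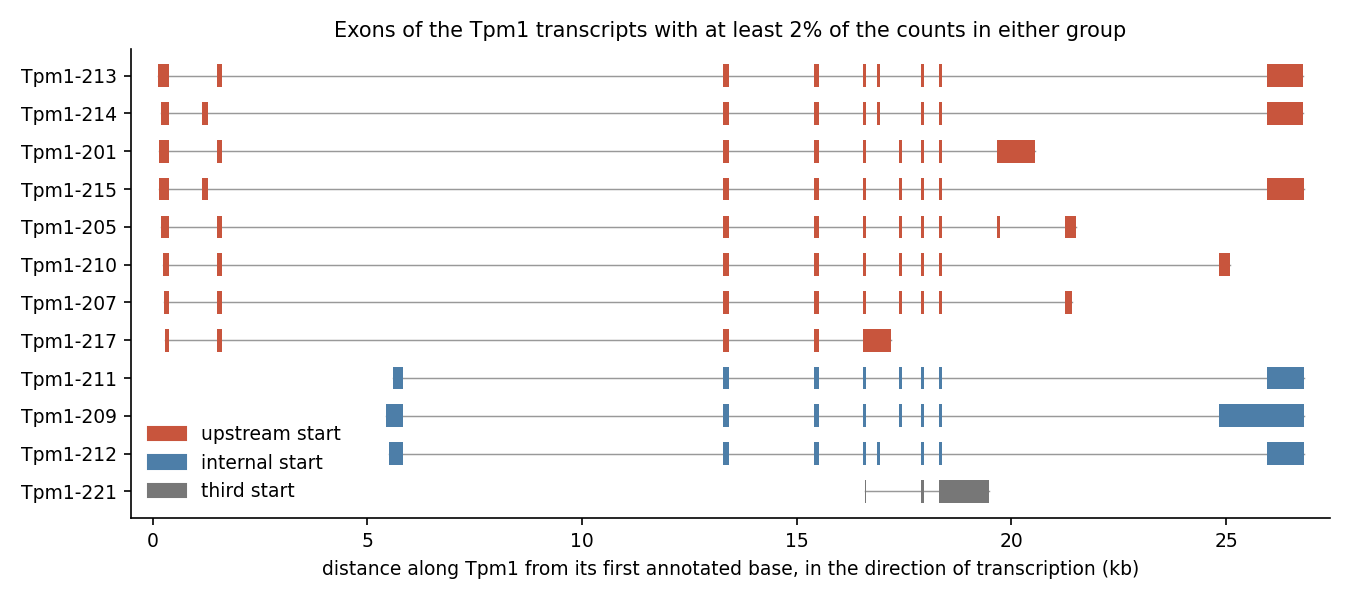
Exons (boxes) of the 12 Tpm1 transcripts with at least 2% of the counts in either group, drawn to scale along the gene in the direction of transcription, in kb from its first annotated base. Colours give the start group, and the transcripts share their middle exons but differ in the first exons, in the exon 6 pair and in the last exon.

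Among single transcripts, the long form Tpm1-213 (upstream start, downstream exon 2, upstream exon 6, farthest last exon, 283 residues) moved most clearly. It stood at 170, 195, 169, 167 and 175 CPM in controls 1 to 5 and at 215, 224, 214, 257 and 235 CPM with Areg, with no overlap. By edgeR's quasi-likelihood test over 36269 transcripts it rose by 0.39 ± 0.06 on the log2 scale (adjusted p = 0.0284). It was the 1 transcript called of the 31 tested for the 4 genes, and 0.775% of all transcripts were called. The call was lost in 13 of 16 alternatives, with edgeR adjusted p of 0.0521 to 0.0936 on leaving out any 1 library other than control 2 (0.0266). The change stayed between 0.34 and 0.43. Its share of Tpm1 counts was 25.1% ± 1.11 in controls and 29.9% ± 1.67 with Areg (share test, adjusted p = 1). The short form Tpm1-211 (internal start, downstream exon 6, same last exon, 247 residues) was the most abundant Tpm1 transcript in controls, at 31.8% ± 1.39 of counts, and stood at 30.1% ± 1.53 with Areg. Its CPM changed by 0.06 ± 0.07 (adjusted p = 0.821), and its groups overlapped.

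Single transcripts are less certain than the start groups, because no 31-base stretch occurs in Tpm1-213 or in Tpm1-211 alone, and kallisto divides the shared reads by estimation. By contrast, 376 of the 1712 stretches of Tpm1-213 occur only in upstream-start transcripts, and 225 of the 1577 of Tpm1-211 only in internal-start transcripts. The uncertainty shows in Tpm1-215, a long form with the other exons 2 and 6. It held 7.53 and 7.40% of counts in controls 3 and 4 but 1.04 to 1.67% in the other controls, and 1.79 to 4.27% with Areg. The short form Tpm1-212 held 1.25, 1.37, 2.36, 3.55 and 4.32% in controls 1 to 5. In the Areg libraries it held at most 1.44%, and it was estimated at 0 counts in Areg 4. Its share test gave a log2 change of -1.94 (adjusted p = 0.112 by edgeR, 0.00789 by limma, which called 0.656% of all transcript shares), and its groups overlapped. Without control 1, control 2 or Areg 2 the edgeR share test called it, with adjusted p = 0.0325, 0.038 and 0.026.

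The other Tpm1 transcripts that passed the filter overlapped between the groups, except Tpm1-218. The long form Tpm1-214, with the upstream exon 2, held 10.8% ± 1.85 and 11.5% ± 1.78, Tpm1-201 5.58% ± 1.03 and 5.82% ± 0.313, and the short form Tpm1-209 5.51% ± 0.617 and 4.70% ± 0.616. Tpm1-205, Tpm1-210, Tpm1-207, Tpm1-216 and the transcripts with no open frame Tpm1-217 and Tpm1-221 each held 1.15 to 3.16% in the mean of either group. Tpm1-202, Tpm1-203 and Tpm1-218 held under 0.5%. Tpm1-218, annotated as a target of nonsense-mediated decay, was lower in every Areg library (0.360% ± 0.0726 against 0.210% ± 0.0923), but on at most 49.6 counts. The share test called none of the 31 shares of the 4 genes, against 0.139% of 31704 shares over all genes. An unadjusted edgeR p under 0.05 was found for 4 of the 31, and for 890 of the 31704. In 3 of the 31 (Tpm1-213, Tpm1-218 and Tpm2-202) the groups did not overlap, against 1.7% of all.

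**Figure D4:**
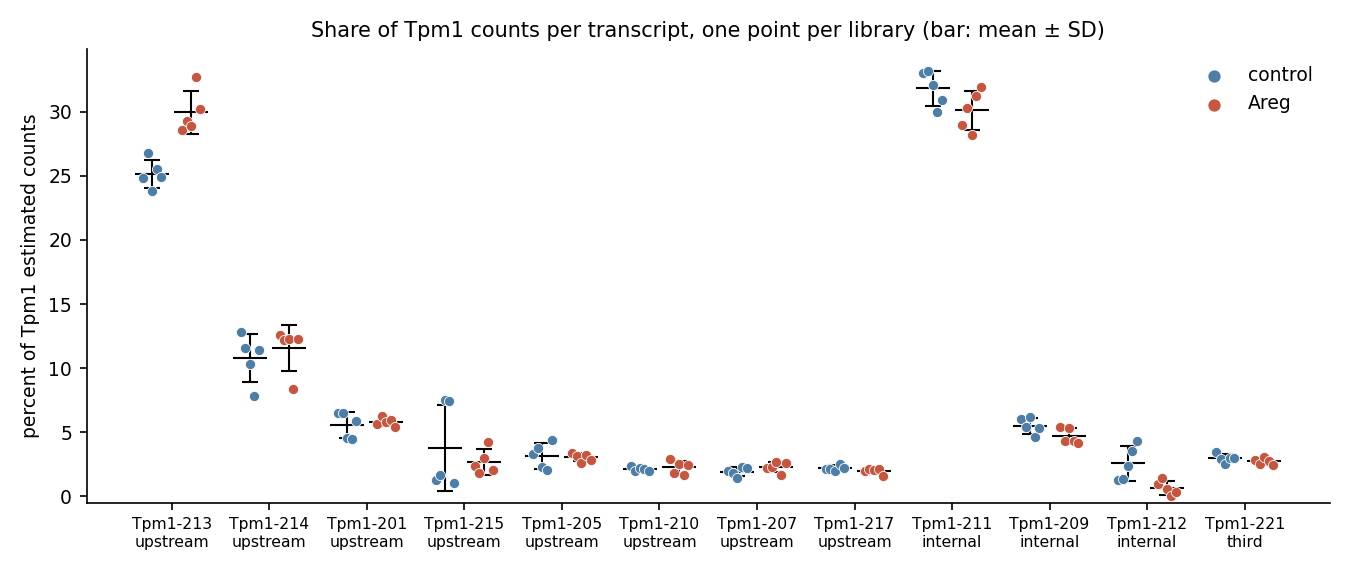
Percent of Tpm1 estimated counts held by each of the 12 main transcripts, with 1 point per library (control blue, Areg red), bars for the mean ± SD, and the start group under each name. Tpm1-213 is higher in every Areg library, and the 2 high control points of Tpm1-215 are controls 3 and 4.

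The exon 6 pair of Tpm1 was read in the same way. The 2 exons have 76 bases each and lie close together, and a transcript uses 1 of them. Capitals mark the 33 bases at which they differ.
Tpm1 exon 6 upstream, chr9:67032466-67032541, minus strand: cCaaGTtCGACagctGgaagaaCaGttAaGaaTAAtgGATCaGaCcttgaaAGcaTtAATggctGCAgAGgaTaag
Tpm1 exon 6 downstream, chr9:67031951-67032026, minus strand: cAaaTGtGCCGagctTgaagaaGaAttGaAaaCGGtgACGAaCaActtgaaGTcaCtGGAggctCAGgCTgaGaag
Of the counts in transcripts with 1 of these exons, the upstream exon held 41.5, 42.2, 38.5, 39.4 and 43.6% in controls 1 to 5 and 44.4, 45.3, 45.2, 43.7 and 45.2% with Areg. The groups did not overlap, but control 5 and Areg 4 nearly met. This choice is tied to the start, since 66.3% ± 4.74 of upstream-start counts carried the upstream exon 6 in controls, and only 6.50% ± 3.38 of internal-start counts. Within the upstream-start transcripts the share was 70.3% ± 1.15 with Areg and the groups overlapped. Within the internal-start transcripts it was 1.88% ± 1.54 and the groups also overlapped. The earlier pair, exon 2, lies in upstream-start transcripts, among them Tpm1-217, which encodes no long form. Of the counts in transcripts with 1 exon of this pair, 25.6% ± 3.66 carried the upstream exon in controls and 23.2% ± 1.63 with Areg, with overlap.

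No difference was detected in the ends of Tpm1. The last exon farthest from the start held 82.0% ± 2.22 of counts in controls and 81.5% ± 1.00 with Areg (edgeR share test, adjusted p = 1). The end group at 67027892 to 67028048 held 5.15% and 5.74% in the mean, and the others each held less than 6%. None of the 13 end groups tested in the tropomyosin genes was called by edgeR, against 0.165% of 19446 over all genes. An unadjusted edgeR p under 0.05 was found for 1 of the 13, and for 781 of the 19446. None was called by limma either. With 5 libraries a group these tests do not show that the ends are the same.

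Tpm3 and Tpm4 were almost wholly of the short kind, and the shares of their forms overlapped between the groups. Tpm3 (ENSMUSG00000027940.18, chr3:90072649-90100902, plus strand) had 98.1% ± 0.223 of its counts from the internal start in controls and 98.2% ± 0.187 with Areg. The upstream start, which gives the long form found in slow skeletal muscle, held 0.632% ± 0.198 and 0.578% ± 0.210. Most Tpm3 counts were of Tpm3-201 (247 residues, upstream exon 6), with 88.1% ± 0.367 and 88.7% ± 0.327. It stood at 583, 597, 621, 628 and 588 CPM in controls 1 to 5 and at 650, 693, 663, 737 and 720 CPM with Areg. These groups did not overlap, and the change was 0.20 ± 0.04 (edgeR transcript test, adjusted p = 0.0749). Tpm3-202, with the downstream exon 6, held 6.93% ± 0.404 and 6.61% ± 0.312, and the retained-intron transcript Tpm3-207 2.73% ± 0.203 and 2.59% ± 0.251. The other 6 tested (Tpm3-203, Tpm3-204, Tpm3-205, Tpm3-210, Tpm3-211 and Tpm3-215) held under 1% each, and the 7 of the 16 that did not pass the filter held at most 27.5 counts. None of the Tpm3 start groups tested was called. None of the 7 start groups tested in the tropomyosin genes had an unadjusted edgeR p under 0.05, against 446 of 14713 over all genes.

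Tpm4 (ENSMUSG00000031799.9, chr8:72134975-72153142, plus strand) has 2 annotated transcripts and 1 start group. Tpm4-201, the short form of 247 residues, held 99.9% ± 0.0747 of its counts in controls and 99.8% ± 0.0611 with Areg. It stood at 1007, 1023, 930, 960 and 1043 CPM in controls 1 to 5 and at 1100, 1134, 1099, 1123 and 1151 CPM with Areg. The Areg libraries were all higher, and the change was 0.18 ± 0.04 (edgeR transcript test, adjusted p = 0.0578). The non-coding Tpm4-202 had at most 45.9 counts.

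Tpm2 (ENSMUSG00000028464.16, chr4:43514711-43523765, minus strand) had only long forms among its complete coding transcripts, and its counts were too low for firm statements on them. Tpm2-203 held 74.8% ± 8.47 of counts in controls and 68.8% ± 2.99 with Areg. Tpm2-202, the 1 transcript with the downstream exon 6, the exon known from skeletal muscle, had 11, 0, 0, 13 and 7 estimated counts in controls 1 to 5 and 52, 47, 46, 25 and 35 with Areg. Its share was 4.81% ± 5.37 and 18.0% ± 4.16 with no overlap, and the tests did not call it (edgeR transcript test, adjusted p = 0.274, share test 0.958). Tpm2-201 had at most 27.3 counts (14.9% ± 5.79 and 5.22% ± 4.27) and Tpm2-205 at most 22.8, and their groups overlapped. Tpm2-204 and Tpm2-206 did not pass the filter.

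Over the whole family the long forms made up a slightly larger part with Areg. Among the 25 complete coding transcripts, 15 encode long proteins (280 to 325 residues) and 10 short ones (244 to 250 residues). Long forms made up 21.6% ± 0.467 of their summed TPM in controls and 22.9% ± 0.513 with Areg. The ranges were 20.9 to 22.0% and 22.5 to 23.5%, which do not overlap. Long forms summed to 452 ± 27.6 TPM in controls and 529 ± 8.65 TPM with Areg, also without overlap, and short forms to 1642 ± 87.5 and 1778 ± 43.4 TPM, with overlap. Most of the long forms were Tpm1: 433 ± 25.5 and 508 ± 7.49 TPM. The short Tpm1 forms stood at 295 ± 22.9 and 283 ± 11.7 TPM, whereas the short forms of Tpm3 (519 ± 13.1 and 581 ± 25.6) and of Tpm4 (828 ± 65.5 and 914 ± 13.4) were higher in every Areg library.

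The genes that share the filament with tropomyosin were read from lists of fixed members. Among proteins that bind along or cross-link the filament, 6 of the 10 tested rose and none fell (median change 0.19, against -0.01 for all genes, of which 8.34% rose). The same 6 were called without controls 3 and 4. Tagln2, a transgelin, rose by 0.28 ± 0.04 on the log2 scale (edgeR adjusted p = 0.000477). The calponins Cnn2 and Cnn3, which bind actin filaments, rose by 0.39 ± 0.07 (edgeR adjusted p = 0.00222) and 0.22 ± 0.05 (edgeR adjusted p = 0.00348), and Smtn, a smooth muscle actin binder, by 0.22 ± 0.05 (edgeR adjusted p = 0.00908). Actn1 and Tagln complete the count and were named after their values were seen, and each lost its call on leaving out any of 5 single libraries (edgeR adjusted p up to 0.0694 and 0.099). The Cald1 change, for the caldesmon that binds tropomyosin and actin together, was 0.18 ± 0.06 (edgeR adjusted p = 0.0585) and is given because of that role, after its value was seen. It was 0.21 without control 1 or control 2 (edgeR adjusted p = 0.0285 and 0.0384) and 0.08 without controls 3 and 4 (0.188).

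The actins themselves did not pass with all 10 libraries, and the 2 cytoplasmic actins did without controls 3 and 4. With all libraries Actg1 changed by 0.17 ± 0.06 (edgeR adjusted p = 0.0788), Actb by 0.12 ± 0.08 (0.346) and Acta2, the actin of smooth muscle and of activated stellate cells, by -0.18 ± 0.10 (0.245). Without controls 3 and 4, the changes were 0.29 for Actg1 (edgeR adjusted p = 3.67e-05), 0.29 for Actb (0.000111) and -0.03 for Acta2 (0.847), and 15.9% of all genes were called in that fit. Leaving out control 3 or control 4 alone was enough for Actg1 (edgeR adjusted p = 0.0246 and 0.0207). Acta2 was low, at 17.5 to 22.6 TPM in controls and 17.3 to 22.7 TPM with Areg. The 3 other actins were not tested and stayed at or below 1.06 TPM. Of the proteins that cap the filament's pointed end on tropomyosin, Tmod3 changed by 0.13 ± 0.05 (edgeR adjusted p = 0.0998) and Tmod1 by -0.14 ± 0.19 (0.658), and the 5 others were too low to test. The median change of these lists was 0.12 for the 3 actins tested and -0.01 for the 2 tropomodulins.

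Of all genes tested, 16.7% were called in either direction, a share to set beside the counts of these smaller lists. Among 11 tested genes of myosin II and its regulators, 1 rose, the essential light chain Myl6 (0.18 ± 0.05, edgeR adjusted p = 0.0262). The median change was 0.12, and Myh11, Myl12a and Rock1 changed by 0.15, 0.12 and 0.25 without passing (edgeR adjusted p = 0.0921, 0.102 and 0.115). Without controls 3 and 4, Myl12a was called (0.18, edgeR adjusted p = 0.0102), as it was without control 3 alone (0.0426), and Rock1 was called without control 1 (0.34, 0.0161). Of 6 severing and turnover genes, Gsn, the filament-severing gelsolin, fell by 0.24 on the log2 scale (edgeR adjusted p = 0.00572) and no other passed (median change 0.05). Cfl1, the cofilin that severs filaments, was called without controls 3 and 4 (0.18, edgeR adjusted p = 0.0444, against 0.03 with them) and was named after its value was seen. Among 8 formins, which build unbranched filaments (median change 0.04), Fmnl2 rose by 0.29 ± 0.07 (edgeR adjusted p = 0.00948). Inf2 and Fhod1 fell, with changes of -0.26 ± 0.06 and -0.24 ± 0.07 (edgeR adjusted p = 0.0065 and 0.0311). Fhod1 was -0.19 without controls 3 and 4 (edgeR adjusted p = 0.0924). Of the 3 tested genes of the SRF pathway, which drives many actin genes (median change -0.02), the coactivator Mrtfa fell (-0.27 ± 0.08, edgeR adjusted p = 0.0253), and Srf itself changed by 0.22 ± 0.11 (edgeR adjusted p = 0.167). Without controls 3 and 4 these calls changed places: Srf rose by 0.42 (edgeR adjusted p = 9.36e-05) and Mrtfa, at -0.14, did not pass (0.157). Without control 4 alone Srf was at 0.31 (edgeR adjusted p = 0.0419). None of the 8 troponins, which sit on tropomyosin in striated muscle, was high enough to test, and none exceeded 3.42 TPM.

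**Figure D5:**
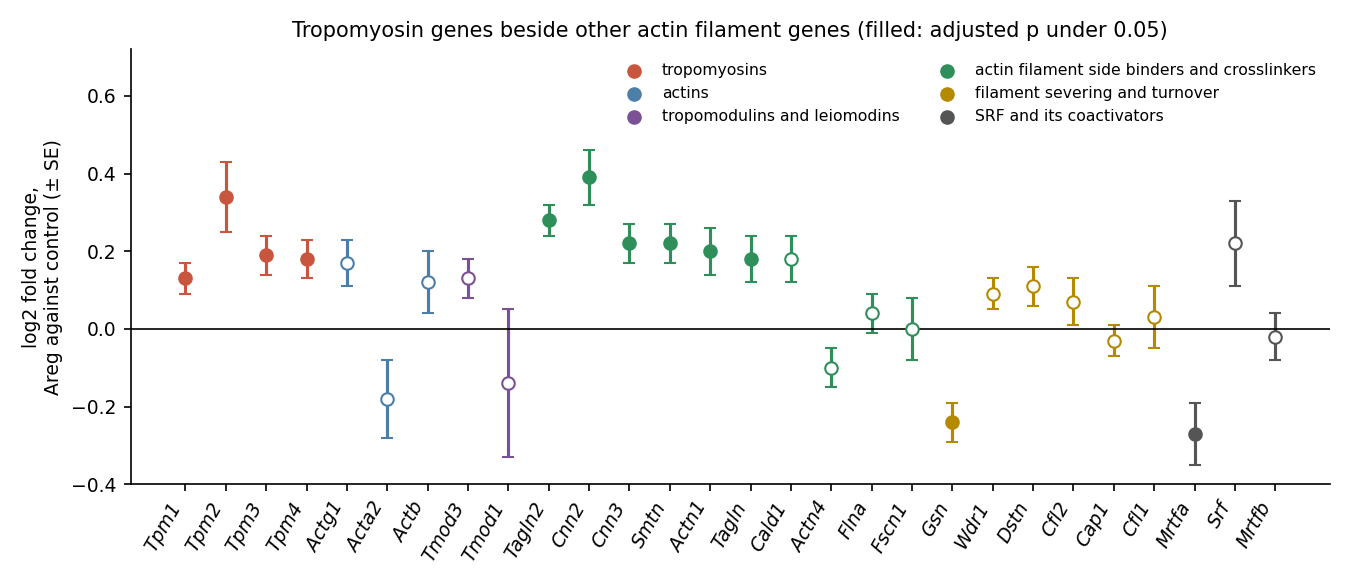
Log2 fold change (Areg against control, ± SE from the edgeR fit, n = 5 per group) of the tropomyosin genes and of the tested genes of 5 lists of actin filament genes, on a linear axis. Filled points passed an adjusted p of 0.05: the 4 tropomyosins, 6 side binders and crosslinkers, Gsn and Mrtfa.

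Splicing regulators were read because tropomyosin exons are classic targets of such proteins. Of 15 tested, 3 rose and 1 fell, with a median change of 0.03, beside 8.34% higher and 8.32% lower among all genes. Hnrnph1 rose by 0.27 ± 0.06 (edgeR adjusted p = 0.00514), Qk by 0.23 ± 0.05 (edgeR adjusted p = 0.00823) and Ptbp2 by 0.30 ± 0.08 (edgeR adjusted p = 0.0225). Rbpms changed by -0.25 ± 0.08 (edgeR adjusted p = 0.0457), and by -0.10 without controls 3 and 4 (0.162), where the 3 others were still called. On the per-length scale, log2(TPM + 1) with limma, the Qk change was 0.00 (adjusted p = 0.985). Of the list genes named, Tagln2, Cnn3 and Smtn passed in all 20 alternatives tried, while the calls of Fhod1, Rbpms, Mrtfa, Ptbp2 and Myl6 were lost in 12, 12, 10, 7 and 6 of the 20. Single libraries were enough for these losses: 6 of the 10 for Fhod1 and Rbpms, 5 for Mrtfa, 4 for Myl6 (Areg 1, 2, 4 and 5) and 3 for Ptbp2 (control 4, Areg 2 and Areg 5), with edgeR adjusted p up to 0.13. Removing each library's trend of counts with transcript length and GC content, under which 14% of all genes were called, ended the calls of Gsn (-0.10, edgeR adjusted p = 0.216), Inf2 (-0.06, 0.365), Fhod1 (-0.07, 0.499), Mrtfa (-0.08, 0.439), Hnrnph1 (0.08, 0.122) and Ptbp2 (0.12, 0.175). In the same fit Actg1 (0.17, edgeR adjusted p = 0.0239), Srf (0.45, 7.21e-05) and Myh11 (0.24, 0.0119) were called, and these were not the only calls gained. Of the side binders and crosslinkers, 8 of 10 were then called higher, and of the myosin list 3 of 11. The splicing list had 2 of 15 higher and 3 lower, and the severing list 1 of 6 higher and 1 lower. Over all genes, 6.71% were called higher and 7.34% lower in that fit.

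Some genes followed the tropomyosins closely over the 10 libraries. Likeness was the mean absolute distance between log2 CPM profiles, each centred on its own mean, over 8614 protein-coding genes of at least 10 CPM. The closest to Tpm1 were Pdcl (0.023), Eef1g (0.025) and Ywhaq (0.026), beside a mean deviation of 0.067 of Tpm1 itself. The closest to Tpm4 were Ubxn4 (0.018), Emc7 (0.020) and Ywhaz (0.020). The closest to Tpm3 were Ywhae (0.027), the calponin Cnn3 (0.027) and Imp4 (0.030), and to Tpm2 Sdc4 (0.051), Enoph1 (0.051) and Rpia (0.054). No tropomyosin was among the closest 3 of another. The nearest pair of them was Tpm1 and Tpm4, at a distance of 0.041.

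Since all 4 genes were called higher, the 250 bases before their RefSeq starts (GRCm38.p6) were searched on both strands. Of the 5 windows for these genes, none held the strict CArG box, the site of SRF, which 1.47% of 32851 windows held. The AP-1 motif TGANTCA was in none of the 5 and in 6.75% of all. The TEAD motif GGAATG was in 1, that of the Tpm1 upstream start, and in 12.6% of all, and the GC box GGGCGG was in 4 of the 5 and in 32.7% of all. The internal Tpm1 start has no window in that table. The window of the Tpm1 upstream start, the start whose transcripts were higher in every Areg library, has its motif matches in capitals.
Tpm1 upstream start, chr9:67049214-67049463, minus strand: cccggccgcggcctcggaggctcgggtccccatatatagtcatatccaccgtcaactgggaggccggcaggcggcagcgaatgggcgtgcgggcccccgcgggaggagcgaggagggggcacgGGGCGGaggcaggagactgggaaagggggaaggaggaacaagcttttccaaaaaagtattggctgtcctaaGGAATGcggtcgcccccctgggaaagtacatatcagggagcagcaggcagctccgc
Its TEAD match begins 56 bases before the RefSeq start and its GC box 127 bases before it. The GENCODE starts of this group run from 67049118 to 67049406, so part of the window is transcribed in some of its transcripts. The TEAD match lies inside the first exon of Tpm1-213.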

How the data were processed

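Poly-A RNA of 10 libraries was read, 5 per group by the labels. The deposited files hold expected counts (kallisto's estimated counts, which need not be whole) and TPM per transcript, together with each transcript's length, per the file headers. Named in the submitters' processing notes are bcl2fastq 2.19, kallisto 0.44.0 and DESeq2, with the build GRCm38.p6. Neither the transcript set nor the strand setting is given in the sources used here, so reads of antisense genes cannot be told apart.

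Transcripts were joined to GENCODE M21. The 1673 of 118489 that did not match (0.736 to 0.778% of counts) were left out. Counts were summed per gene, per start group or per end group (positions joined within 500 bases) and rounded. Depth ran from 10125184 to 20057962 estimated counts. No replicate pair agreed within counting noise (chi-square over its degrees of freedom 3.77 to 49.8), so none was merged.

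Genes (13362) and transcripts were filtered with filterByExpr (minimum count 10, total 15) and tested with edgeR 4.0.16 (R 4.3.3, quasi-likelihood, TMM). Shares were tested with diffSpliceDGE, where a log2 change is that of a form relative to its whole gene. Benjamini-Hochberg adjustment ran over all features, with a threshold of 0.05. Shares in the text are percent of estimated counts. Transcript names and exons are those of GENCODE, and 31-base stretches were compared with all matched transcripts. Alternatives used DESeq2 1.42.0, limma 3.58.1 with log2(TPM + 1) or log2(TPM + 0.1), other filters, length and GC corrections, a replicate block, left-out libraries and, added after seeing the data, limma on the log2 odds of a share and an exact permutation of the share. The gene and share tests were also run on simulated data. There the edgeR and limma share tests called more false genes than the 0.05 threshold allows, and they recovered few small share changes.

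The members and lists were chosen with earlier results of these data known. The genes named are the 4 members with every transcript past the filter, of each list at most 4 tested genes with the smallest p (actins and tropomodulins: any), the 3 genes nearest each member in profile, and Tpm3-rs7. Actn1, Tagln, Cald1, Cfl1 and the cell type marker genes were named outside this rule, after their values were seen.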

Additional observations from a re-analysis of the deposited data

Results flagged for a closer look

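A total of 76 groups of 5 libraries were checked for a library far from the others, of which chance flags about 1 in 20, and 3 were found. The Tpm1 internal start share of control 4 was 38.2%, below the 40.1 to 40.6% of the other controls. The Tpm3 end group at 90092130, which is the long transcript Tpm3-205, held 0.487% of counts in Areg 3, above 0.162 to 0.226% in the other Areg libraries. The share of the long Tpm1 transcript Tpm1-214 was 8.36% in Areg 4, below 12.2 to 12.6% in the others, and in that library Tpm1-213 had the highest share of the 10 libraries, at 32.7%.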

How the results depend on the processing

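No alternative reversed a tropomyosin gene, and each of the 4 kept a change of 0.09 or more over the 20 tried. Tpm1 lost its call with no filter (0.15), on log2(TPM + 1) and log2(TPM + 0.1) (0.11 each), with an effective length offset (0.14) and with a length and GC trend removed (0.09). Leaving out 1 library gave 0.11 to 0.15 for Tpm1, with 8 of 10 not called. Tpm2 lost its call on the TPM scales (0.26 and 0.28) and with the length offset (0.31), Tpm3 on the TPM scales (0.15 each), and Tpm4 on the TPM scales (0.16 each) and with the length and GC trend removed (0.09). The Tpm1 start shares were called by limma diffSplice only (0.28 and -0.25). These limma changes are relative to the other start groups of the gene and the edgeR ones to the whole gene, so their sizes are not comparable. The share of the farthest Tpm1 end, -0.01 in the chosen fit, was 0.02 without controls 3 and 4 and -0.02 to 0.01 on leaving out 1 library. With the length and GC trend removed, Tmod3 was at -0.01 and Mrtfb at 0.02, against 0.13 and -0.02. The cause of these changes was not tested.

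Counts of calls moved more. Genes called were 2226, and 856, 868 and 1149 on log2(TPM + 1), log2(TPM + 0.1) and the length offset, with 1364 to 2314 when 1 library was left out. Transcripts called were 281, and 1927 with DESeq2, 126 on log2(TPM + 1), 168 without controls 3 and 4 and 115 with a total of at least 10, with 39 to 180 when 1 library was left out. Transcript shares called were 44, and 83 without controls 3 and 4, 333 with a total of at least 10, 208 with limma diffSplice, 1 on log2 odds and 0 by permutation, with 37 to 122 when 1 library was left out. Start group shares called were 13, and 23, 48, 73, 0 and 0 in that order, 23 with starts joined at 100 bases, and 7 to 34 with 1 library left out. End group shares called were 32, and 131 with a total of at least 10, 100 with limma diffSplice, 0 on log2 odds, 0 by permutation and 51 with ends joined at 100 bases, with 22 to 96 when 1 library was left out. Beside the counts of 0, the log2 odds gave 1136 start and 1573 end group shares, and the permutation 2586 transcript, 1220 start and 1685 end group shares, with an unadjusted p under 0.05. The permutation cannot give a p below 0.00794, and too few shares reached that p for any to pass adjustment. Its counts of 0 thus say nothing about single shares.

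The replicate numbers of the labels did not pair the libraries: same-numbered libraries deviated together with correlations of -0.05 to 0.14, and 2 of 5 pairs were best with their own number. With the replicate block, the Tpm1 change of 0.13 had an adjusted p of 0.0623, and the calls were 21 transcripts, 30 start group shares and 69 end group shares. Depth limits Tpm2 above all, with 101 to 259 counts a library.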
